A study of Mus musculus with 33 samples.

Results

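The genes described here are 8 transcripts of plasma cells and antibodies: Igkj1, Jchain, Pou2af1, Irf4, Xbp1, Prdm1, Sdc1 and Tnfrsf17. They were named as a set with earlier results of these data in view, and the probe set that stands for each gene was chosen by its mean over all 33 arrays, without regard to group. Of the 8 genes, 7 were measured, by 11 of the 45037 probe sets tested. Sdc1, which encodes syndecan-1, a surface proteoglycan of plasma cells, was paired with no probe set in the annotation used and was not analysed here. Igkj1, Jchain, Pou2af1, Prdm1 and Tnfrsf17 had 1 probe set each, Irf4 had 2 and Xbp1 had 4.

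Kidneys were taken from 33 mice of the lupus-prone NZB X NZW F1 (BWF1) cross, with 1 array per kidney. Of these mice, 30 had received Adv-IFNα, an adenovirus that carries the mouse interferon-alpha gene and is used to accelerate nephritis in this cross, and their kidneys were collected 1, 2, 3, 5, 7 or 9 weeks later (n = 5 per week). A further 3 mice had no treatment. The treated mice were females injected intravenously at an age given as 8 or 9 weeks. No group analysed here received an empty virus, so vector and interferon cannot be told apart. The labels state neither age nor collection week for the untreated mice, so age and treatment cannot be told apart in the weeks these mice do not match.

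A B cell that is driven to secrete antibody becomes a plasmablast and then a plasma cell. The transcription factors IRF4, BLIMP1 (gene Prdm1) and XBP1 carry the change: IRF4 and BLIMP1 turn the B cell towards secretion, and XBP1 enlarges the endoplasmic reticulum in which antibody is folded. Immunoglobulin chains, together with the J chain that joins IgM or IgA into polymers, then become major products of the cell. In lupus nephritis antibody is deposited in the glomeruli, and plasma cells can also settle in the inflamed kidney itself.

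Promoter sequence is shown for 3 of these genes, since Jchain and Pou2af1 were among those that differed between late and untreated kidneys and Tnfrsf17 was among those that did not pass the test in any comparison. Each runs 5′ to 3′ on the strand of the gene, with 250 bases before and 50 after the start, from RefSeq on build GRCm38.p6. Capitals mark a motif match. The Jchain promoter lies at chr5:88527848-88528147 on the minus strand, that of Pou2af1 at chr9:51213440-51213739 on the plus strand and that of Tnfrsf17 at chr16:11313559-11313858 on the plus strand.
Jchain: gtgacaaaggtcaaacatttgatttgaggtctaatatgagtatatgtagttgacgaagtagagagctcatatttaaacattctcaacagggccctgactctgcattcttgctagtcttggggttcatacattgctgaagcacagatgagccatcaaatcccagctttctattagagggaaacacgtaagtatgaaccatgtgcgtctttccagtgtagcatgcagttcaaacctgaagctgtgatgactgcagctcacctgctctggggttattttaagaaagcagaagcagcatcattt
Pou2af1: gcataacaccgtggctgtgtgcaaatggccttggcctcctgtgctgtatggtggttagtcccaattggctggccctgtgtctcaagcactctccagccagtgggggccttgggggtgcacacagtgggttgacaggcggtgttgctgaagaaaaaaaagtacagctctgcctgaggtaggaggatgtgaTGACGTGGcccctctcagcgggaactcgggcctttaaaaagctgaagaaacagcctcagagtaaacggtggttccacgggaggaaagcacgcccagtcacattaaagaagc
Tnfrsf17: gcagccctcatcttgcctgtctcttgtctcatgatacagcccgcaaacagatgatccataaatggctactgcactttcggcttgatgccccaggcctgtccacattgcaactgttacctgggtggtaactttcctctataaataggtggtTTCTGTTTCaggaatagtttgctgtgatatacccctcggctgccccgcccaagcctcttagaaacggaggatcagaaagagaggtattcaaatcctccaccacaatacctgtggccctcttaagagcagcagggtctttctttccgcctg

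Both strands were searched for 4 motifs tied to this program, and overlapping matches were allowed. These were the octamer ATGCAAAT, to which OCT factors bind with their coactivator OCA-B (gene Pou2af1), the core TGACGTGG of the unfolded protein response element bound by XBP1, the Ets-IRF composite element GGAANNGAA and the core GAAANNGAA of the interferon-stimulated response element. Of 32851 promoters of the same length, 1.74% held the octamer, 0.676% the XBP1 core, 8.24% the composite element and 8.56% the interferon core. Among the 7 genes of the set with a promoter in the table, Pou2af1 held TGACGTGG at bases -61 to -54 from its start. Tnfrsf17 held the interferon core at bases -100 to -92, read on the strand of the gene as TTCTGTTTC. None of the 4 motifs was found in the windows of Jchain, Irf4, Xbp1, Prdm1 and Sdc1. A match is a run of letters and was not tested as a binding site.

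Signal is given as log2 values normalized by RMA (robust multi-array average), so a difference of 1 is a 2-fold difference in signal. The 23 nonspecific control probe sets averaged between 0.977 and 3.25, with 4.14 as the highest value on any array, and a probe set within that range can hide a change. Array medians lay between 3.97 and 4.09, and correlations between pairs of arrays between 0.965 and 0.994. A gene was called higher or lower when its limma p, adjusted over all probe sets of a comparison, was below 0.05. Because the genes were named with results in view, their p-values describe these arrays and are not independent support. In whole kidney, more cells of a type and more RNA per cell cannot be told apart.

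No gene of the set passed the test at weeks 1 to 3, and first calls came at week 5 or week 7. At week 5 all 5 kidneys lay above every untreated kidney for Igkj1, Jchain, Pou2af1 and Irf4, but of these only Igkj1 passed the test. The share of all probe sets separated in this way is not given here, so the separation is a description without a background. A difference in onset between genes was not tested. Igkj1 was called higher than in untreated kidneys at week 5. At week 7 it was joined by Jchain, Pou2af1, Irf4 and Xbp1, and at week 9 Igkj1, Jchain, Pou2af1 and Irf4 were called while Xbp1 was not. Prdm1 and Tnfrsf17 did not pass the test in any of the 12 comparisons, and no gene of the set was called lower in any of them.

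**Figure D1:**
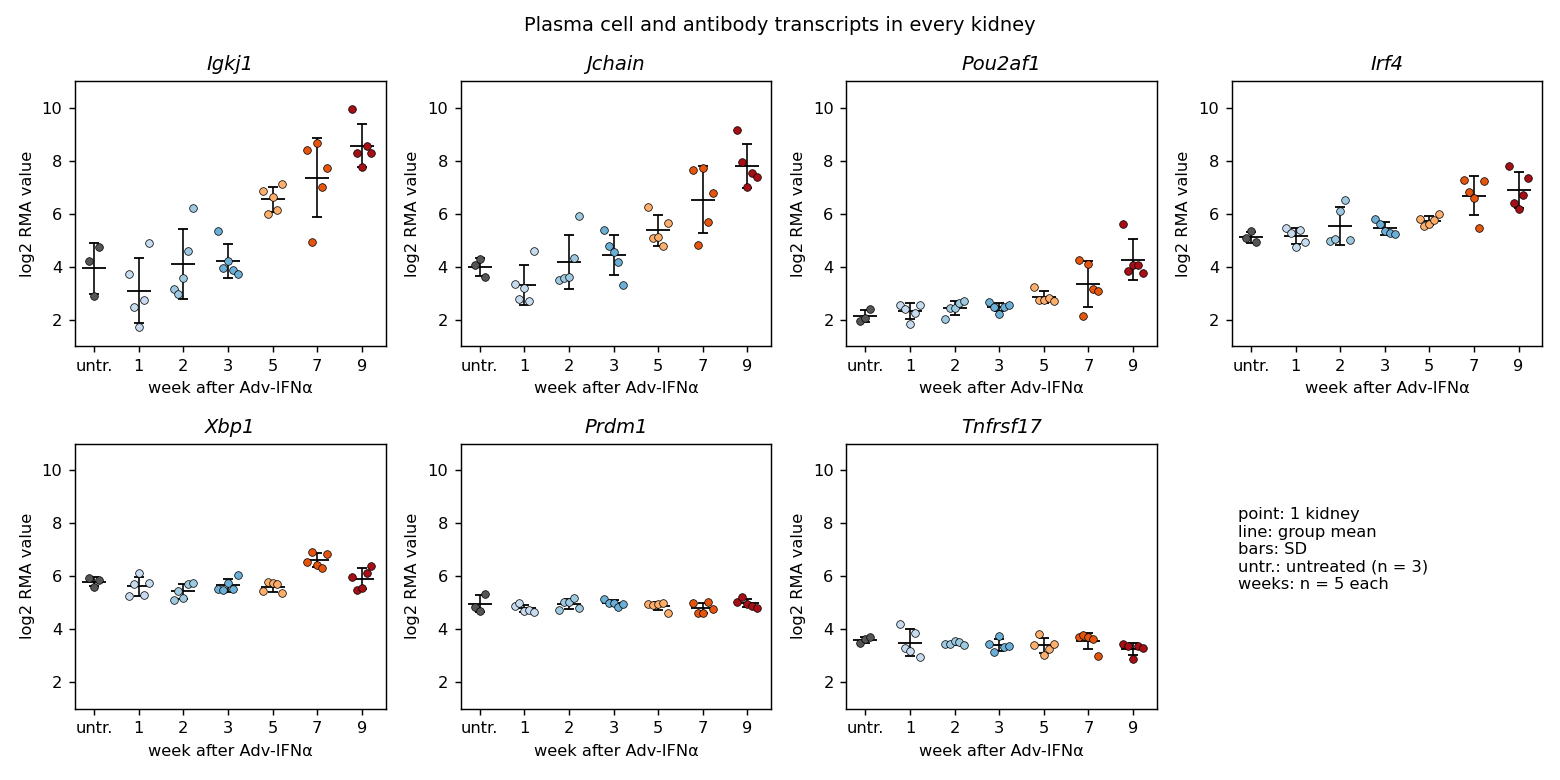
Log2 RMA values of the 7 measured genes in every kidney, with untreated kidneys at the left of each panel and then weeks 1 to 9 (points: kidneys; lines and bars: mean and SD; n = 3 untreated and 5 per week). In weeks 5, 7 and 9 all kidneys lie above every untreated kidney for Igkj1 and Jchain, whereas Xbp1 stands out at week 7 alone and Prdm1 and Tnfrsf17 show no such shift.

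Set against untreated kidneys, 0 of the 7 genes were called higher at week 1 by limma, where 1.00% of all probe sets were called higher and 0.426% lower. The count was 0 at week 2, beside 0.877% of all probe sets higher and 0.449% lower, and 0 at week 3, beside 1.07% higher and 0.302% lower. In these 3 weeks 0 of the 7 genes had an unadjusted p below 0.05. At week 5, 1 gene was called higher, beside 1.85% of all probe sets higher and 1.11% lower. By unadjusted limma p, 3 genes (Igkj1, Jchain and Pou2af1) were below 0.05. All shares given are of adjusted calls. The share of all probe sets with an unadjusted p below 0.05 is not given here, so unadjusted counts have no background beside them. At week 7, 5 of 7 genes were called higher, against 9.85% of all probe sets higher and 5.82% lower. At week 9, 4 of 7 were called higher, against 6.41% of all probe sets higher and 7.53% lower. The median change of the 7 genes was 1.22 at week 7 and 1.77 at week 9 on the log2 scale, beside 0.02 and -0.06 over all probe sets. These 6 comparisons share the 3 untreated kidneys.

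**Figure D2:**
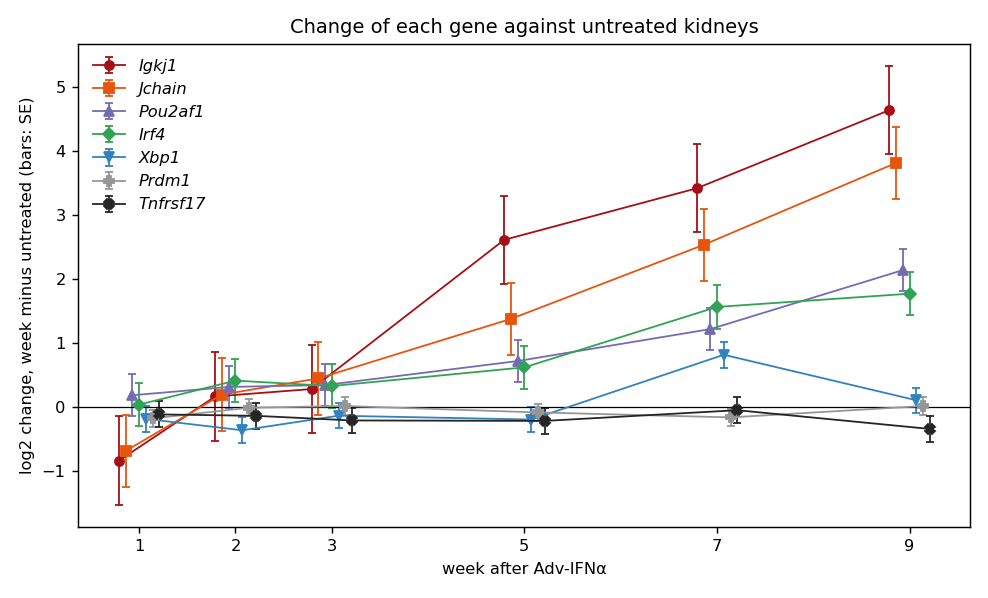
Log2 change of each of the 7 genes from untreated kidneys by week after Adv-IFNα (points: week minus untreated; bars: SE from the shared limma model; points are set slightly apart sideways). Igkj1 has the largest change at weeks 5, 7 and 9, Jchain follows it, and Xbp1, drawn from its brightest probe set, is at 0.82 at week 7 and 0.11 at week 9.

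Igkj1 is a joining segment of the immunoglobulin kappa light chain locus on chromosome 6, and light chains pair with heavy chains to form an antibody. Its probe set carries the suffix x, which marks probes that also match other sequences, so other kappa transcripts may add to its signal. Igkj1 read 4.20, 2.88 and 4.72 in the 3 untreated kidneys. It read 3.71, 2.47, 1.71, 2.73 and 4.87 at week 1, then 3.15, 2.98, 3.58, 4.59 and 6.20 at week 2, and 5.33, 3.96, 4.20, 3.87 and 3.71 at week 3. These 3 weeks overlapped with the untreated kidneys, and a single week 2 kidney, replicate 5, stood above them by more than 1 unit. At week 5 Igkj1 read 6.86, 6.0, 6.64, 6.12 and 7.10, at week 7 it read 8.40, 4.94, 8.66, 7.01 and 7.73, and at week 9 it read 9.95, 8.27, 7.78, 8.54 and 8.30. Every kidney of these weeks lay above every untreated kidney, and the lowest of them was replicate 2 of week 7.

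The change of Igkj1 from untreated kidneys was 2.61 (SE 0.69, limma adjusted p = 0.0303) at week 5, a 6.11-fold higher signal. At week 7 it was 3.41 (adjusted p = 7.72e-04), or 10.7-fold, and at week 9 it was 4.63 (adjusted p = 3.34e-05), or 24.8-fold. Without week 7 replicate 2 the week 7 change was 4.02. Igkj1 in untreated kidneys lay partly within the range of the nonspecific controls, so these folds may understate the true change. Week 5 and week 3 kidneys did not overlap, but their difference of 2.33 did not pass (adjusted p = 0.329). The week 5 call was lost without untreated replicate 1 or 2 or week 5 replicate 1, 3 or 5, with adjusted p between 0.0564 and 0.123.

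Jchain, on chromosome 5, encodes the J chain, which links IgM into pentamers and IgA into dimers and is made by antibody-secreting cells. It read 4.07, 4.28 and 3.62 in untreated kidneys. At week 1 it read 3.33, 2.76, 3.18, 2.69 and 4.57, at week 2 it read 3.51, 3.57, 3.61, 4.33 and 5.91, and at week 3 it read 5.37, 4.77, 4.56, 4.17 and 3.31. In week 1, 4 of 5 kidneys were below all untreated kidneys, but the change of -0.68 did not pass (adjusted p = 0.644). Jchain read 6.25, 5.06, 5.12, 4.77 and 5.64 at week 5, then 7.63, 4.81, 7.72, 5.67 and 6.78 at week 7, and 9.15, 7.96, 7.00, 7.53 and 7.37 at week 9. From week 5 on there was no overlap with untreated kidneys, and at week 9 the lowest kidney was above all kidneys of weeks 1 to 5.

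Jchain differed from untreated kidneys by 1.38 (SE 0.57, adjusted p = 0.190) at week 5, which did not pass, by 2.53 (adjusted p = 0.00204) at week 7 and by 3.81 (adjusted p = 3.33e-05) at week 9, or 14-fold. Its untreated values lay close to the highest value of the nonspecific controls, so this fold too may understate the true change. Between week 9 and week 1, with untreated kidneys out of the comparison, Jchain was higher by 4.49 (SE 0.49, adjusted p = 7.79e-07) and Igkj1 by 5.47 (SE 0.60, adjusted p = 7.79e-07). That comparison called 4 of the 7 genes higher (Igkj1, Jchain, Pou2af1 and Irf4), beside 4.64% of all probe sets.

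Pou2af1, on chromosome 9, encodes OCA-B, the lymphoid coactivator that works with OCT factors at immunoglobulin promoters. It read 1.95, 2.05 and 2.38 in untreated kidneys, all within the range of the nonspecific controls, and between 1.83 and 2.69 in weeks 1 to 3. At week 5 it read 3.25, 2.74, 2.75, 2.80 and 2.69, at week 7 it read 4.26, 2.15, 4.08, 3.14 and 3.09, and at week 9 it read 5.62, 3.84, 4.07, 4.04 and 3.76. Week 5 kidneys overlapped neither with week 3 nor with untreated kidneys, and in week 7 replicate 2 lay among the untreated values. The change from untreated kidneys was 0.72 (SE 0.33, adjusted p = 0.246) at week 5, 1.22 (adjusted p = 0.00917) at week 7 and 2.14 (adjusted p = 4.87e-05) at week 9, or 4.40-fold. With untreated values this close to the controls, the true change may be larger than the fold given.

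Irf4, on chromosome 13, encodes a transcription factor needed for plasma cell formation and is also expressed in activated T cells and in some macrophages and dendritic cells. It read 5.08, 5.33 and 4.92 in untreated kidneys and 5.44, 5.27, 4.74, 5.37 and 4.92 at week 1. At week 2 it read 4.96, 5.06, 6.10, 6.49 and 5.00, so that replicates 3 and 4 stood more than 1 unit above the other week 2 kidneys, and neither was the kidney that was high for Igkj1 and Jchain. Irf4 read between 5.22 and 5.79 at week 3 and between 5.52 and 5.97 at week 5. At week 7 it read 7.26, 6.82, 6.58, 5.47 and 7.22, and at week 9 it read 7.79, 6.40, 6.16, 6.70 and 7.34. All kidneys of weeks 5, 7 and 9 were above every untreated kidney.

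The change of Irf4 from untreated kidneys was 0.62 (SE 0.34, adjusted p = 0.354) at week 5, 1.56 (adjusted p = 0.00155) at week 7 and 1.77 (adjusted p = 6.76e-04) at week 9. Its second probe set averaged 1.96, within the range of the nonspecific controls, and showed changes of 0.08 (adjusted p = 0.840) at week 7 and -0.19 (adjusted p = 0.535) at week 9. With the mean of both probe sets the change of Irf4 was 0.82 (adjusted p = 0.00220) at week 7 and 0.79 (adjusted p = 0.00440) at week 9.

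Xbp1, on chromosome 11, encodes a transcription factor of the unfolded protein response that secretory cells of many kinds use, kidney epithelium among them. It read 5.94, 5.61 and 5.85 in untreated kidneys, and lay between 5.12 and 6.11 in weeks 1 to 3 and between 5.38 and 5.78 at week 5. Week 7 stood apart, with 6.55, 6.93, 6.42, 6.33 and 6.85, all above every untreated and every week 5 kidney. At week 9 Xbp1 read 5.99, 5.47, 5.56, 6.11 and 6.40 and overlapped with untreated kidneys again. The change from untreated kidneys was 0.82 (SE 0.20, adjusted p = 0.00437) at week 7 and 0.11 (adjusted p = 0.770) at week 9. The difference between week 9 and week 7, of -0.71 in this probe set, did not pass (adjusted p = 0.108).

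The 4 probe sets of Xbp1 were not alike in the comparison with untreated kidneys. The 3 dimmer ones changed by 0.38, 0.24 and 0.18 at week 7 and did not pass (adjusted p between 0.140 and 0.556), and with the mean of all 4 the change was 0.40 (adjusted p = 0.0257). Between week 7 and week 5 all 4 were called higher, by 1.01 (adjusted p = 3.95e-04) for the brightest and by 0.81, 0.62 and 0.50 for the others. Between week 9 and week 7 the 3 dimmer ones differed by -0.20, -0.04 and -0.07 (adjusted p between 0.577 and 0.940), and the mean of all 4 by -0.26 (adjusted p = 0.309). Against untreated kidneys their week 9 changes were 0.18, 0.21 and 0.10, so the lower value of Xbp1 at week 9 was mainly that of the brightest probe set.

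Prdm1, on chromosome 10, encodes BLIMP1, the repressor that ends the B cell program and is needed for antibody secretion. It lay between 4.71 and 5.33 in untreated kidneys, between 4.61 and 5.03 at week 7 and between 4.82 and 5.21 at week 9, so all groups overlapped. Its change from untreated kidneys was -0.16 (SE 0.13, adjusted p = 0.469) at week 7 and 0.02 (SE 0.13, adjusted p = 0.951) at week 9. Tnfrsf17, on chromosome 16, encodes BCMA, the receptor through which long-lived plasma cells take up survival signals from APRIL and BAFF. It read 3.49 to 3.71 in untreated kidneys, 3.00 to 3.77 at week 7 and 2.88 to 3.43 at week 9. All 5 week 9 kidneys were below all untreated kidneys, but the change of -0.34 (SE 0.20, adjusted p = 0.273) did not pass. Values of Tnfrsf17 lay close to the upper range of the nonspecific controls, where a change would be compressed.

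From one collection week to the next, calls were rare for these genes. Neither week 2 against week 1 (0 of 7, beside 0.0600% of all probe sets called higher) nor week 3 against week 2 (0 of 7, beside 0%) gave a call, and 0 genes had an unadjusted p below 0.05 in either by limma. Week 5 against week 3 gave 0 calls, beside 0.0155% of all probe sets, with 1 gene, Igkj1, at an unadjusted p below 0.05. Week 7 against week 5 gave 2 calls, Irf4 (0.94, SE 0.29, adjusted p = 0.0403) and Xbp1, beside 4.72% of all probe sets. The Irf4 call at that step was lost without week 5 replicate 1, 2, 3, 4 or 5 or week 7 replicate 1, 2, 3 or 5, with adjusted p between 0.0508 and 0.138. Week 9 against week 7 gave 0 calls, beside 0.0111% of all probe sets. In that comparison 4 genes had an unadjusted p below 0.05: Jchain (1.28, adjusted p = 0.270), Igkj1 (1.22, adjusted p = 0.383) and Pou2af1 (0.92, adjusted p = 0.186) higher at week 9 and Xbp1 lower. The shares in these comparisons too are of adjusted calls and are no background for the unadjusted counts.

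The mean levels of Igkj1 and Jchain followed the same order, with week 9 highest, then weeks 7, 5, 3 and 2, untreated kidneys, and week 1 lowest. Neighbours in that order overlapped, apart from week 5 and week 3 for Igkj1. Pou2af1 was ordered alike except that untreated kidneys were lowest, and there too only weeks 5 and 3 did not overlap. Irf4 had week 2 above week 3 and untreated kidneys lowest, and all its neighbours overlapped. For Xbp1 week 7 was highest, followed by week 9, untreated kidneys and weeks 3, 1, 5 and 2, and each pair of neighbours overlapped.

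Kidneys of the same week differed among themselves. At week 7, replicates 1 and 3 were the 2 highest for Igkj1, Jchain and Pou2af1, and replicate 2 was the lowest for all 3. The same replicate 2 was the highest kidney for Xbp1, at 6.93, and had 6.82 for Irf4, the third highest. At week 9, replicate 1 was the highest kidney for Igkj1, Jchain, Pou2af1 and Irf4, at 9.95, 9.15, 5.62 and 7.79. Over the treated weeks the SD of Igkj1 lay between 0.47 at week 5 and 1.49 at week 7, and that of Jchain between 0.59 at week 5 and 1.26 at week 7. Early weeks were also spread, with SDs at week 2 of 1.33 for Igkj1 and 1.02 for Jchain.

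Across the 33 kidneys Igkj1 and Jchain varied together, with Pearson r = 0.954, and each was the gene most like the other among 17096 genes ranked. Within groups, after each group's mean was taken out, r was 0.842 and the rank was again 1 for both. Pou2af1 had r = 0.898 with Jchain and 0.881 with Igkj1 (within groups 0.689 and 0.722). Irf4 had r = 0.781 with Jchain (rank 83 among genes like Jchain) but 0.278 within groups. Xbp1 had r = 0.416 with Jchain and -0.06 within groups, and Prdm1 and Tnfrsf17 had 0.06 and -0.20. These values are descriptions over arrays that share a time course and a joint normalization.

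**Figure D3:**
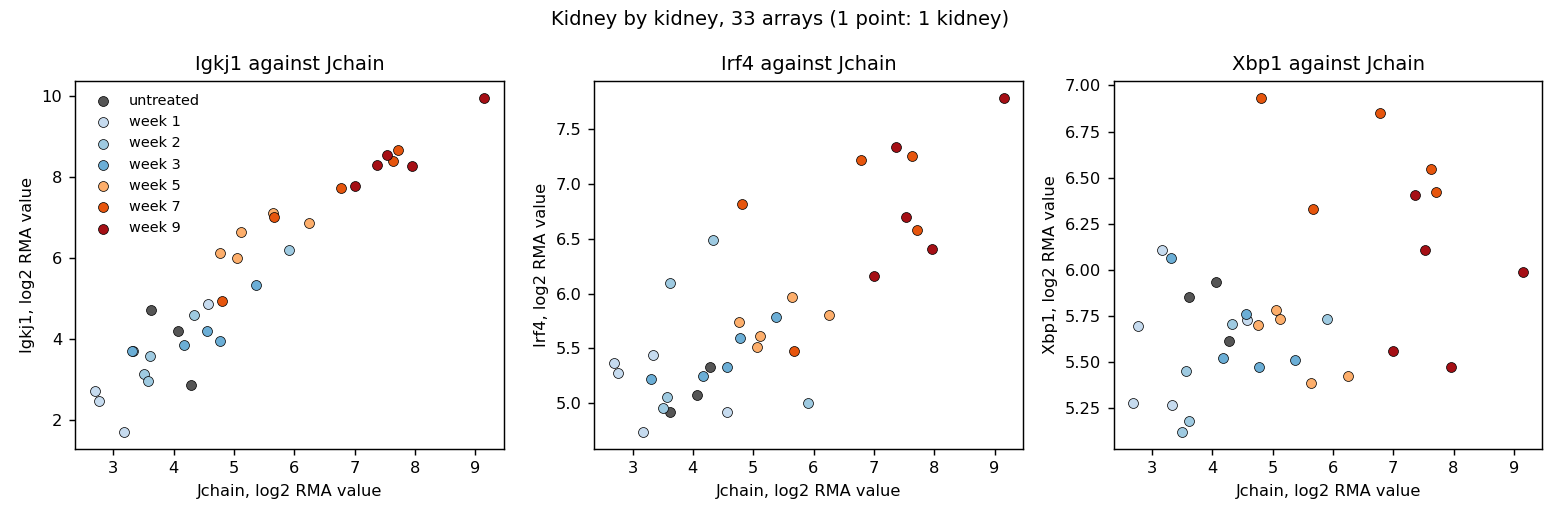
Log2 RMA values of Igkj1, Irf4 and Xbp1 (vertical axes) against Jchain (horizontal axis) in 33 kidneys, 1 point per kidney, coloured by group. Igkj1 rises with Jchain over the whole range (r = 0.954), whereas Xbp1 is high in all 5 week 7 kidneys, both in those with low and in those with high Jchain (r = 0.416).

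Outside the set, the 5 genes most like Jchain were Cxcl13 (r = 0.882), which encodes a chemokine that attracts B cells, St8sia4, Arhgap30, Tmsb4x and Cd52. Those most like Igkj1 were St8sia4 (r = 0.896), Cd44, Arhgap30, Lcp1 and Coro1a, of which the last 2 encode actin-binding proteins of leukocytes. For Pou2af1 they were C1qb (r = 0.892), a complement gene of macrophages, Ccl8, Cxcl13, Mrc1 and Igk-V21. Irf4 was most like Pros1 (r = 0.908), Anxa2, Lox, Cd14 and Ncam1. For Xbp1 the list was Cnksr3 (r = 0.871), Skap2, Flvcr1, Kpna2 and Rcan1. Prdm1 and Tnfrsf17 had no gene above r = 0.601 and r = 0.651, which were Atl1 and Krt42.

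Other immunoglobulin genes were measured by 24 probe sets in 15 genes, most of them dim. Compared with untreated kidneys, 1 of the 15 genes was called higher at week 7, beside 9.85% of all probe sets, and 4 at week 9, beside 6.41%, and none was called lower. With 15 mostly dim genes, the week 7 count of 1 cannot be told apart from the share of all probe sets. The median change of the 15 genes was 0.14 at week 7 and 0.28 at week 9. The kappa variable gene Igk-V21 had values between 2.83 and 5.92 at week 9 and between 1.54 and 2.18 in untreated kidneys, a change of 2.53 (SE 0.51, adjusted p = 0.00105), and had changed by 2.01 (adjusted p = 0.00577) at week 7. Igkv15-103 was higher by 1.97 (adjusted p = 0.00219), the lambda gene Iglv1 by 1.14 (adjusted p = 0.0163) and Igkv6-15 by 1.10 (adjusted p = 0.0490) at week 9. Dimmer probe sets of the same genes changed by 2.01 (adjusted p = 0.0310) and 0.11 (adjusted p = 0.692) for Igk-V21, 0.41 (adjusted p = 0.357) for Iglv1 and 0.76 (adjusted p = 0.0552) for Igkv6-15. The heavy chain genes measured did not pass. At week 9 Ighm, the IgM heavy chain, changed by 0.28 (adjusted p = 0.383) and Igha, that of IgA, by -0.18 (adjusted p = 0.489). They averaged 3.07 and 2.09 over the 33 arrays, within the range of the nonspecific controls, where a change can be hidden. No IgG heavy chain gene was among the 15, so IgG heavy chain transcripts were not analysed here.

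**Figure D4:**
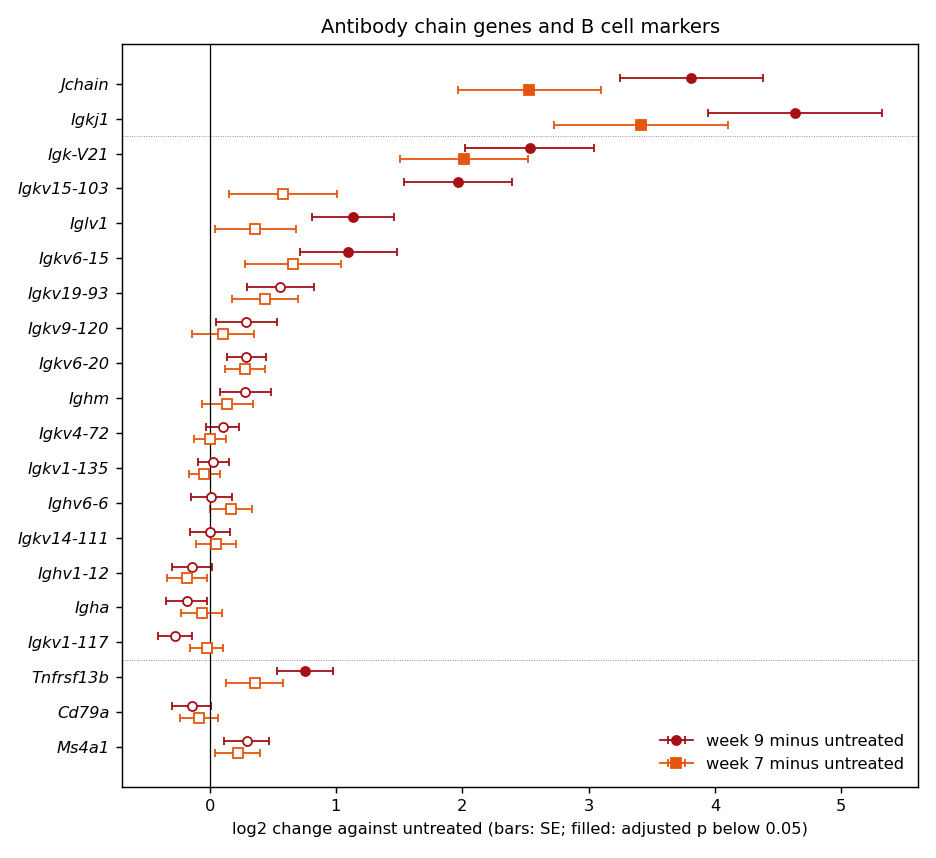
Log2 change from untreated kidneys at week 9 (circles) and week 7 (squares) of Jchain and Igkj1, of 15 other immunoglobulin genes and of 3 genes of B lineage cells (bars: SE; filled symbols: adjusted p below 0.05). Of the 15, Igk-V21 is called in both weeks and Igkv15-103, Iglv1 and Igkv6-15 at week 9 alone, while Ighm, Igha, Cd79a and Ms4a1 have open symbols near 0.

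Lists of related genes were read against the same shares of all probe sets called. These were 9.85% higher and 5.82% lower at week 7, and 6.41% higher and 7.53% lower at week 9. Counts in lists this short were not tested against these shares. Markers of mature B cells came first. Of 23 measured genes of B cell identity, 3 were called higher and 1 lower at week 7, and 4 higher at week 9, with a median change of 0.21 and 0.23. The 4 were Cd72 (1.53, adjusted p = 9.33e-04), a coreceptor, Cd74 (1.30, adjusted p = 0.0455), the invariant chain of MHC class II that other antigen-presenting cells also make, Blnk (0.56, adjusted p = 0.0125), a signalling adaptor, and the dim Bank1 (0.48, adjusted p = 0.0373). Cd79a, part of the B cell receptor, lay between 3.85 and 4.32 at week 9 and between 4.14 and 4.28 in untreated kidneys (change -0.14, adjusted p = 0.580). Ms4a1, which encodes CD20, changed by 0.29 (adjusted p = 0.291) and stayed within the range of the nonspecific controls in every group.

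Genes of plasma cell differentiation and secretion outside the set were called in both directions. Of 12 measured, 2 were called higher and 1 lower at both week 7 and week 9, with a median change of -0.03 and -0.05. Of all probe sets, 9.85% were called higher and 5.82% lower at week 7, and 6.41% higher and 7.53% lower at week 9. Cd93, a receptor of plasma cells that endothelium and myeloid cells also carry, was higher at week 9 by 1.15 (adjusted p = 3.40e-04), and Ell2, an elongation factor used in making secreted antibody, by 0.47 (adjusted p = 0.0108). Eaf2, a partner of ELL factors, was lower by 0.71 (change -0.71, adjusted p = 0.00246). Mzb1, a chaperone of antibody-secreting cells, was not analysed here.

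Folding genes of the endoplasmic reticulum, on many of which XBP1 acts, were called most often at week 7. Of 23 measured, 8 were called higher and 1 lower at week 7, against 2 higher and 2 lower at week 9. The shares of all probe sets were 9.85% higher and 5.82% lower at week 7, and 6.41% higher and 7.53% lower at week 9. Hspa5, which encodes the chaperone BiP, was higher by 0.55 (adjusted p = 0.0193) at week 7 and differed by 0.15 (adjusted p = 0.592) at week 9. Its mean was nearly as high at week 1 (10.04) as at week 7 (10.09), against 9.54 in untreated kidneys. The mean level of the list was likewise 8.04 at week 1 and 8.11 at week 7, against 7.90 in untreated kidneys. Canx, the lectin chaperone calnexin, was called higher in all 6 weeks, by 0.39 at week 1 and 0.32 at week 9. Ssr4, a subunit of the translocon-associated complex through which secreted proteins enter the reticulum, was higher by 0.64 (adjusted p = 0.0293) at week 7 and 0.68 (adjusted p = 0.0258) at week 9. Herpud1 and Dnajb11, genes of protein degradation and of BiP's cochaperone, were lower at week 9, with changes of -0.73 (adjusted p = 0.0178) and -0.39 (adjusted p = 0.0185).

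Signals that can draw B lineage cells to a tissue or keep them alive, and receptors for such signals, were measured as well. Of 17 measured, 1 was called higher at week 3, 3 at week 5, 7 at week 7 and 9 at week 9, and none lower. The shares of all probe sets called higher in these weeks were 1.07%, 1.85%, 9.85% and 6.41%. The median change of the list was 0.30, 0.71 and 0.66 at weeks 5, 7 and 9. Cxcl13 lay between 5.22 and 7.11 at week 9 and between 3.52 and 3.85 in untreated kidneys, a change of 2.43 (SE 0.32, adjusted p = 5.64e-06). Vcam1, the adhesion molecule of stromal niches, was higher by 1.97 (adjusted p = 4.50e-05), the chemokine Cxcl10 by 1.44 (adjusted p = 0.0169) and Itga4, a subunit of the VCAM-1 receptor, by 1.38 (adjusted p = 0.00241). Cxcl10 lay between 6.26 and 7.37 at week 9 and overlapped with untreated kidneys (4.69 to 6.92). Its mean was 6.96 at week 1 and 6.87 at week 9. Tnfsf13b, which encodes BAFF, was higher by 1.18 (adjusted p = 0.00304) at week 7 and 0.91 (adjusted p = 0.0258) at week 9, and Tnfrsf13b, its receptor TACI, by 0.76 (adjusted p = 0.0219) at week 9. Tnfsf13, which encodes APRIL, differed by 0.08 (adjusted p = 0.802).

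Receptors that bind or carry antibody were measured by 9 genes. Of these, 1 was called higher at each of weeks 1, 2 and 3, then 3 at week 5 and 5 at weeks 7 and 9. The shares of all probe sets called higher were 1.00%, 0.877%, 1.07%, 1.85%, 9.85% and 6.41% at weeks 1, 2, 3, 5, 7 and 9. The median change of the 9 genes was 0.84 at week 1 and 1.33 at week 9. At week 9 Fcgr4 was higher by 2.75 (adjusted p = 4.03e-06), Fcgr1 by 2.28 (adjusted p = 2.63e-04), Fcgr3 by 1.99 (adjusted p = 1.58e-04) and their shared signalling chain Fcer1g by 1.95 (adjusted p = 6.97e-05). All 4 are expressed in macrophages. Pigr, which carries polymeric IgA and IgM across epithelium, differed by 0.86 (adjusted p = 0.215).

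Markers of other cell types were called as well. The shares of all probe sets called higher were 1.00% at week 1, 1.85% at week 5, 9.85% at week 7 and 6.41% at week 9. The shares called lower were 5.82% at week 7 and 7.53% at week 9. Of 12 macrophage and monocyte markers, 1 was called higher at week 1, 3 at week 5 and 9 each at weeks 7 and 9, and their mean level per kidney was 5.32 to 6.42 at week 9 against 4.27 to 4.41 in untreated kidneys. Adgre1, a surface marker of macrophages, was higher by 2.58 (adjusted p = 4.23e-06) at week 9. Of 12 T cell markers, 1 was called higher at week 7 and 3 at week 9, with a mean level of 3.78 to 4.25 against 3.48 to 3.75 in untreated kidneys. Cd3g was higher by 1.32 (adjusted p = 0.00525) and Cd3e differed by 0.80 (adjusted p = 0.0535). Of 11 kidney epithelial markers, 3 were called higher and 3 lower at week 7, and 4 higher and 2 lower at week 9. They had a mean level of 8.10 to 8.55 at week 9 and 7.98 to 8.32 in untreated kidneys. The part of these cell types in the values of Irf4, Xbp1 and the other genes was not tested.

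Technical measures differed between groups too. The log2 ratio of 3′ to 5′ beta-actin probe sets, a sign of RNA integrity, averaged 2.02 ± 0.10 at week 9 (SD, n = 5) and 1.98 ± 0.12 at week 7 (SD, n = 5), against 1.57 ± 0.16 in untreated kidneys (SD, n = 3). It was nearly as high in the earlier treated weeks, with means of 1.95, 1.93, 1.91 and 1.88 at weeks 1, 2, 3 and 5. The ratio was thus higher on average in every treated group, so its part and that of treatment cannot be told apart. With this ratio as a covariate, the week 7 changes of Jchain (1.58, adjusted p = 0.20), Igkj1 (2.84, adjusted p = 0.0563) and Pou2af1 (0.88, adjusted p = 0.237) did not pass, nor did the week 5 change of Igkj1 (2.17, adjusted p = 0.244). At week 9 the same 4 genes were still called, with Jchain at 2.78 (adjusted p = 0.0347) and Igkj1 at 4.0 (adjusted p = 0.0167). Haemoglobin transcripts, which come from blood in the kidney, averaged 7.58 ± 1.56 at week 7 (SD, n = 5), against 9.10 ± 0.40 at week 5 (SD, n = 5) and 8.53 ± 0.38 in untreated kidneys (SD, n = 3). Their lowest mean was that of week 1, at 7.13 ± 0.43 (SD, n = 5). With haemoglobin transcripts as a covariate, the change of Irf4 between week 7 and week 5 (0.76, adjusted p = 0.264) did not pass.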

How the data were processed

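Total RNA of whole kidneys was labelled with biotin and hybridised to Affymetrix HT-MG-430 PM arrays, 1 per mouse. The log2 values deposited by the authors are probe set intensities after RMA normalization. The submitters' processing notes list RMA and Partek with no version, and the base of the logarithm was read from the range of the values. The build behind the array design is not given in the sources used here. Of 45141 probe sets, 104 controls were left out. An annotation paired 28898 with 1 gene symbol, 551 with several and 15588 with none, and genes were named from the first kind alone.

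All 33 arrays entered 1 limma 3.58.1 model (R 4.3.3) with 7 group means and 26 residual degrees of freedom, and p-values were adjusted over 45037 probe sets (Benjamini-Hochberg). Comparisons were each week against untreated, each week against the one before, and week 9 against week 1. P-values measure the spread between mice. The model was tested on simulated data. Figures were drawn with matplotlib 3.10.9.

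The genes and lists were chosen with earlier results of these data known. Named genes were the whole set, up to 4 genes per list with the largest week 9 change among those called, genes fixed by name (Ms4a1, Cd79a, Mzb1, Tnfsf13, Tnfsf13b, Tnfrsf13b, Pigr, Hspa5, Cd3e and Adgre1), immunoglobulin genes, and the 5 genes most correlated with each. Alternatives were the mean of all probe sets, the compared groups alone, array weights, a filter on dim probe sets, arrays centred on their medians, a trended robust variance, covariates for beta-actin and haemoglobin, a replicate block, and each kidney left out.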

Additional observations from a re-analysis of the deposited data

Results flagged for a closer look

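Of 42 groups of 5 kidneys, 1 for each gene and week, 5 held a kidney whose gap to the nearest other kidney took up most of the range of its group (Dixon's test). Chance alone marks about 1 group in 20. Pou2af1 read 5.62 in week 9 replicate 1, where the other kidneys of that week read 3.76 to 4.07, and the same kidney was the highest of its week for Igkj1, Jchain and Irf4. At week 5 Pou2af1 read 3.25 in replicate 1, where the others read 2.69 to 2.80. Prdm1 was low in week 5 replicate 5, at 4.62 beside 4.91 to 4.98. Tnfrsf17 was low in week 7 replicate 5, at 3.00 beside 3.62 to 3.77, and in week 9 replicate 3, at 2.88 beside 3.28 to 3.43. Leaving out any of these kidneys in turn did not change a call against untreated kidneys for Pou2af1, Prdm1 or Tnfrsf17.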

How the results depend on the processing

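The count of genes called higher at week 9 against untreated kidneys (4) and against week 1 (4) held within 1.5 times under all alternatives run, and no change of a called gene turned its sign. At week 5 against untreated kidneys the count of 1 became 3 with the compared groups alone, where Jchain (adjusted p = 0.0330) and Pou2af1 (adjusted p = 0.0490) passed, and 0 with array weights (Igkj1 2.67, adjusted p = 0.0678), with a trended robust variance (adjusted p = 0.0611) and with a beta-actin covariate (Igkj1 2.17, adjusted p = 0.244). Over the kidneys left out in turn it ran from 0 to 1. The week 7 count of 5 became 2 with the beta-actin covariate, and Pou2af1 did not pass with the compared groups alone (adjusted p = 0.0902). Between week 5 and week 3 the count of 0 became 1 with the compared groups alone (Igkj1, adjusted p = 0.0259). Between week 7 and week 5 the count of 2 became 1, through the loss of Irf4, with the compared groups alone (adjusted p = 0.0681), centred arrays (0.0504), a trended robust variance (0.0527) and the haemoglobin covariate (0.264), and ran from 1 to 2 over the kidneys left out. There Jchain passed without week 7 replicate 2 (1.58, adjusted p = 0.0441), and the lower week 9 value of Xbp1 against week 7 passed without replicate 4 of week 7 (-0.78, adjusted p = 0.0338) and without replicate 5 of week 9 (-0.84, adjusted p = 0.0412). The shares of all probe sets called under these alternatives are not given here. A gain or loss of calls particular to these genes therefore cannot be told apart from a general one. The causes were not tested.

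Replicate numbers did not pair the kidneys. Over 93 pairs with the same number the mean correlation of deviations from the group means was -0.003, 11 pairs were over 0.1 and 7 of 33 arrays were most like an array of their own number. With a replicate block no call changed, and Igkj1 at week 5 changed by 2.44 (adjusted p = 0.0239). A filter on probe sets below 4.04 kept 22519 probe sets and 5 of the 7 genes, without Pou2af1 and Tnfrsf17. With 3 untreated kidneys and a dim signal for Pou2af1, Tnfrsf17 and most immunoglobulin genes, small changes could be missed.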

Other observations

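A single week 2 kidney, replicate 5, read 5.91 for Jchain and 6.20 for Igkj1, where the other week 2 kidneys read 3.51 to 4.33 and 2.98 to 4.59. It was picked out after its values were seen. Its Pou2af1 value of 2.69 was also the highest of the week, while its Irf4 value of 5.00 was among the lowest.

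The red cell list, measured by 3 genes, had a mean level of 4.42 to 7.23 across week 7 kidneys, the widest range of any week. The calls in this list went both ways. Alas2, the enzyme that starts haem synthesis in red cell precursors, was higher at week 9 by 1.21 (adjusted p = 0.0208) and differed by 0.06 (adjusted p = 0.937) at week 7, and the median change of the list was -1.34 at week 7 and 1.15 at week 9. Slc4a1, an anion exchanger of red cells and of collecting duct cells, was lower at week 7 by 1.34 (change -1.34, adjusted p = 0.00195) and at week 9 by 1.22 (change -1.22, adjusted p = 0.00578). Among 11 kidney epithelial markers, 3 were called higher and 3 lower at week 7, beside 9.85% and 5.82% of all probe sets. The keratins Krt18 (1.95, adjusted p = 1.24e-04) and Krt8 (1.25, adjusted p = 5.62e-04) were higher and the sodium chloride cotransporter Slc12a3 was lower (change -0.95, adjusted p = 9.03e-04).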
